A study of Homo sapiens with 18 samples.

Results

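Expression of germline and cancer-testis genes was examined in HAP1, a near-haploid human line derived from the leukaemia cells KBM-7. The set held 50 genes, given as a list of symbols and matched to Ensembl identifiers, of the 20329 genes counted. All 50 were found. They comprised 15 genes of the piRNA pathway, 9 other germ cell factors, 13 meiosis genes and 13 cancer-testis antigens. GTSF1 and ACTL8 were followed most closely.

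Polyadenylated RNA was sequenced from 18 samples in 6 groups of 3. Set A held wild-type controls, *ΔWAPL* clone 3.3, *ΔSCC4* cells and *ΔWAPL*/*ΔSCC4* cells, the last made by removing SCC4 from clone 3.3, and set B held its own wild-type controls and *ΔWAPL* clone 1.14. WAPL releases cohesin from DNA, and SCC4, encoded by MAU2, loads it together with SCC2. WAPL and SCC4 were disrupted with CRISPR by insertion of a blasticidin and a puromycin cassette, respectively. All groups share the mutant p53 of the parental HAP1 cells. The labels name 1 line for *ΔSCC4* and 1 for *ΔWAPL*/*ΔSCC4*, so that genotype and clone cannot be told apart in these. The labels name the set for the controls only, and the knockouts were placed by the sequencing run recorded with the files. Nothing states that the replicates were separate cultures, so p-values measure the spread between these samples.

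Germline genes are transcribed in germ cells and are silent in most somatic tissues, where DNA methylation and repressor complexes keep them off. The piRNA pathway uses small RNAs bound by PIWI proteins to silence transposons in the germline, while meiosis genes build the synaptonemal complex and repair programmed breaks. Cancer-testis antigens are normally found in testis, many are encoded on the X chromosome, and tumours often express them.

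Each sample held between 10007646 and 20711127 counts on genes (median 16177867). Levels are given as CPM, the TMM-normalised count relative to library size. WAPL mRNA lay at 99.2 ± 21.5 CPM (SD, n = 3) in control A, 43.7 ± 5.65 in clone 3.3 and 45.5 ± 3.94 in *ΔWAPL*/*ΔSCC4* cells, and at 121 ± 14.6 in control B and 41.3 ± 2.89 in clone 1.14. MAU2 lay at 65.6 ± 6.25 CPM (SD, n = 3) in control A, 0.702 ± 0.243 in *ΔSCC4* and 0.934 ± 0.1 in *ΔWAPL*/*ΔSCC4* cells. Markers of late spermatids summed to at most 0.0616 CPM in any library. Of 12 haematopoietic markers only 2 or 3 were on per group, and SPI1, HBG1 and MPO had no read in any group. The 12 summed to 91.2 to 93.4 CPM in control A, where TAL1 had 72.9 ± 5.62 and KIT 18.5 ± 4.26 CPM (SD, n = 3). Over all libraries the sum ran from 14.4 to 95.6 CPM. Testis somatic markers summed to 0.849 to 2.97 CPM and fibroblast markers, of which VIM and COL1A1 were on, to 265 to 668 CPM. Of the testis markers, AMH had 0.612 ± 0.3 CPM in control A and 1.6 ± 0.448 in *ΔSCC4* (SD, n = 3). Reads on a gene do not separate fewer expressing cells from less RNA per cell.

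The promoters of GTSF1 and ACTL8 are shown because these genes moved most among the members on in every group. Each line holds the 250 bases before the annotated start, 5′ to 3′ in the direction of the gene, from RefSeq (GRCh38.p14). Each matched base for base to 1 place on the gene's own chromosome and strand in GRCh37, the build of the files. Other chromosomes were not searched. The capitals in GTSF1 (chr12:54867387-54867636, minus strand) mark CCGGAAG, a core that ETS factors bind. In ACTL8 (chr1:18081578-18081827, plus strand) they mark CACGTG, a form of the E-box. This form is called the E-box below, and other forms were not searched.

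GTSF1: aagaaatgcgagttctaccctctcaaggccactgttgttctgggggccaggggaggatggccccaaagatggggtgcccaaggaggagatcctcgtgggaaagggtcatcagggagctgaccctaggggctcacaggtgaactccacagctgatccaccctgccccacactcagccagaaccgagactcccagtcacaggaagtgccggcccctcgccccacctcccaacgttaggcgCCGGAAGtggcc

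ACTL8: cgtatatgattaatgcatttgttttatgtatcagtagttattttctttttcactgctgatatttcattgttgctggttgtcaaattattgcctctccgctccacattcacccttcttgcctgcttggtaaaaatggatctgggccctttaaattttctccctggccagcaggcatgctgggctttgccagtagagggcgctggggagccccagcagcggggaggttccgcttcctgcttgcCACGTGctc

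In GTSF1 the ETS letters lie 12 to 6 bases before the start, and in ACTL8 the E-box lies 9 to 4 bases before it. Searched on both strands, CCGGAAG is held by 8.52% of 35116 promoter windows of the same length, CACGTG by 6.34% and the E2F letters GGCGGGAA by 2.72%. The E-box reads the same on both strands. RefSeq promoters were found for 40 members. Among the 10 of these that were on in some group, 2 hold the E-box, 1 the E2F letters and 1 the ETS letters. Among the 30 others the numbers are 8, 1 and 5. A member was counted where any of its entries held the letters, and 11 members have several entries. The shares over all promoters are per single window, so the 2 are not directly comparable. The GTSF1 window has 8 CpG sites and that of ACTL8 has 6, against a median of 11 over all windows, with quartiles of 3 and 23. DPPA4 has 3 CpG sites and BRME1 has 36, so CpG content varied widely among the expressed members. A match is a description of the letters and not evidence of binding.

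A gene was called on in a group when each of its 3 samples had at least 1 CPM, off when each was under 0.1 CPM, and low otherwise. By this rule 13 members were on in both sets of controls: GTSF1, PIWIL4, TDRKH and PLD6 of the piRNA pathway, DAZL, DPPA4 and TEX19 of the germ cell factors, SYCE2, TEX15, MEIOB and BRME1 of the meiosis genes, and the cancer-testis antigens PRAME and ACTL8. SYCP2, on in control A, had 0.672 CPM in replicate 2 of control B, and DMC1, on in control B, had 0.977 CPM in replicate 1 of control A. These 15 were the only members on in any group. In control A, 14 members (28%) were on, against 58.1% of all genes. The number on was 13 in clone 3.3, 14 in *ΔSCC4*, 12 in *ΔWAPL*/*ΔSCC4*, 14 in control B and 14 in clone 1.14, and for all genes the share lay between 58.1% and 58.8% in every group. No group had more members on than the controls.

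The remaining 35 members never reached the on state, and their highest count in a library was 22 reads. ASZ1, SYCP1, HORMAD2 and SPO11 had no read in any library. A count of 0 allows up to 3 reads, which is 0.145 to 0.3 CPM depending on the library and covers counting error only. A further 19 had 1 to 20 reads over all 18 libraries: PIWIL1, DDX4, MAEL, TDRD1, TDRD5, TDRD9, MOV10L1, DPPA3, BOLL, SYCP3, HORMAD1, MAGEA1, MAGEC1, MAGEC2, PAGE1, PAGE5, CTAG2, SSX1 and BRDT. The 12 with over 20 reads were PIWIL2, TDRD6, TDRD12, DPPA2, NANOS3, TEX101, STK31, TEX11, TEX14, MAGEA3, MAGEA4 and MAGEB2. Of these DPPA2, a partner of DPPA4 in pluripotent cells, came closest, with 0.419 to 0.911 CPM as group means. NANOS3, which protects primordial germ cells, had group means of 0.492 to 0.666 CPM. All 11 X-linked members, TEX11 and 10 cancer-testis antigens, were below the on state in every group, while 15 of the 39 autosomal members were on somewhere. Reads without a unique alignment were not counted, so genes that share sequence with relatives can be understated. How much this took from single genes was not examined. The map of all members by library shows the same split, with a bright upper part in each block.

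**Figure D1:**
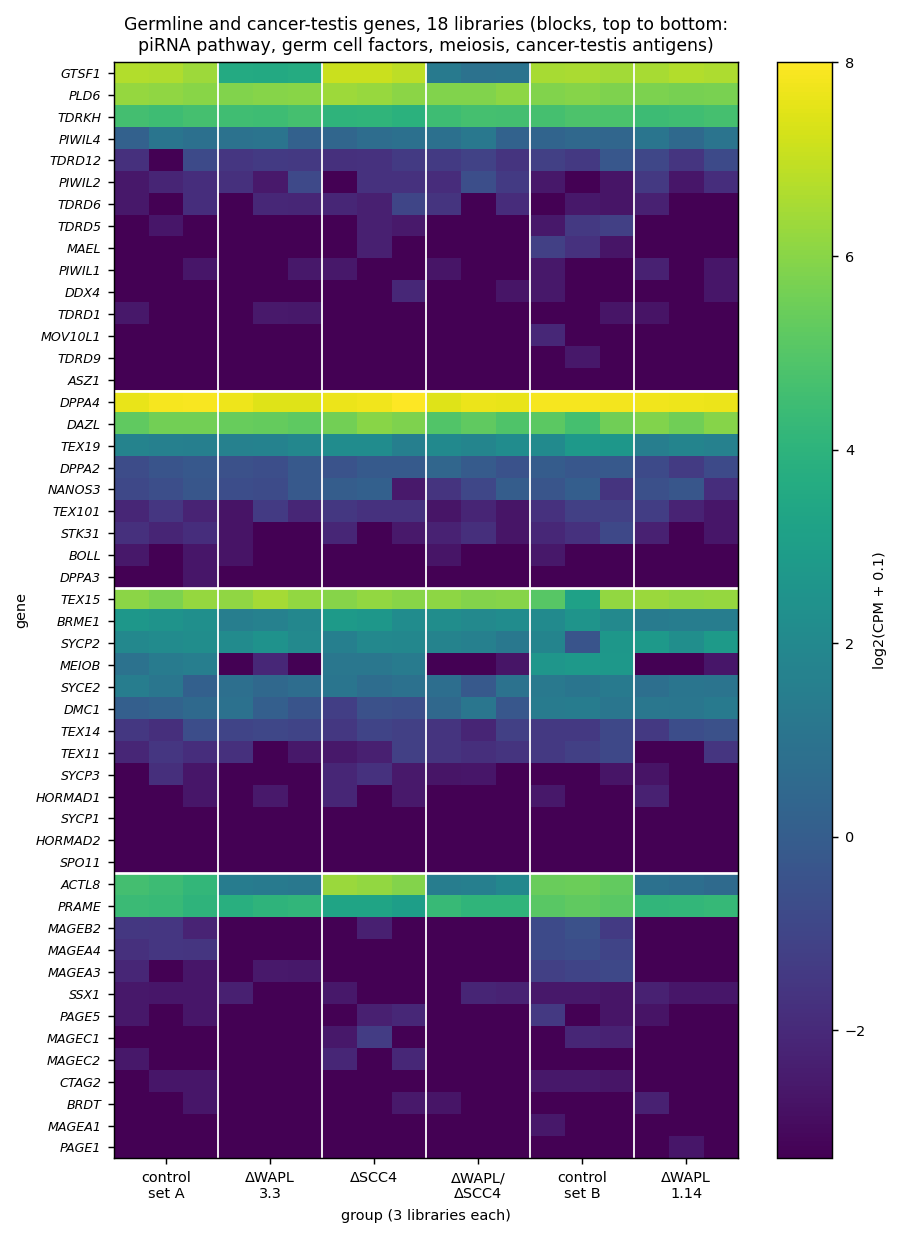
Level of the 50 members (vertical axis, grouped by role and ordered by mean level) in the 18 libraries (horizontal axis, 3 per group) as log2(CPM + 0.1), shown by colour. The 15 members on in at least 1 group stand at the top of the blocks. GTSF1, ACTL8 and MEIOB show the widest range between groups.

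Levels between genes were compared as CPM per kilobase of annotated exon. In control A, DPPA4, a chromatin factor of pluripotent and germ cells, stood at 44.5 ± 4.16 CPM per kb (SD, n = 3). GTSF1, a zinc finger partner of PIWI proteins, followed at 37.8 ± 4.74, and its spread overlapped that of DPPA4. PLD6, a mitochondrial enzyme required for piRNA formation, stood at 27 ± 2.03 CPM per kb. DAZL, an RNA-binding protein of germ cells, had 12.5 ± 1.7, and ACTL8, an actin-like protein, had 11.6 ± 1.66, within each other's spread. TEX15 with 5.41 ± 0.816, PRAME with 4.96 ± 0.588 and TDRKH with 4.73 ± 0.308 CPM per kb formed the next, overlapping step. The lowest of those on in control A were SYCP2 with 0.654 ± 0.0639 and PIWIL4 with 0.356 ± 0.113 CPM per kb. Lengths merge all annotated exons, so these levels are approximate.

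The main comparisons of knockout with control used edgeR's quasi-likelihood test with Benjamini-Hochberg adjustment over all genes tested and a threshold of 0.05. Standard errors (SE) were obtained from the F statistic, as the log2 fold change divided by its root, and can understate the error where counts are low. In clone 3.3 against control A, 16 members were tested and 4 changed, all lower: MEIOB, ACTL8, GTSF1 and BRME1. Of all genes tested, 8.07% changed and 3.9% were lower. In clone 1.14 against control B, 17 members were tested and 5 changed, again all lower: MEIOB, ACTL8, PRAME, TEX19 and BRME1. There 20.1% of all genes changed and 11.4% were lower. In *ΔSCC4* against control A, ACTL8 rose and PRAME, TDRKH and DMC1 fell among 17 tested, where 9.49% of all genes changed. In *ΔWAPL*/*ΔSCC4* against control A, GTSF1, MEIOB and ACTL8 fell among 16 tested, where 7.95% of all genes changed and 3.3% were lower. Without control A replicate 1 this number was 5, with DAZL and SYCP2 lower as well. Of the 2 fibroblast markers that were on, VIM fell in the double knockout, from 586 ± 73.5 to 254 ± 20.5 CPM, and COL1A1 rose from 13.2 ± 0.616 to 29.4 ± 2.24 CPM (SD, n = 3). The haematopoietic marker KIT fell there as well, from 18.5 ± 4.26 to 8.01 ± 1.31 CPM (SD, n = 3). KIT is also counted below among the germ cell and pluripotency genes. The part of these markers was not tested. These comparisons in set A share the control samples. Members tested were those that passed a filter on low counts, and the others were too low to test. Counted by samples alone, 4 of 15 expressed members did not overlap between clone 3.3 and control A (23.3% of all genes), 9 of 15 in clone 1.14 (42.5%), 6 of 15 in *ΔSCC4* (26.7%) and 6 of 15 in the double knockout (22.6%).

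**Figure D2:**
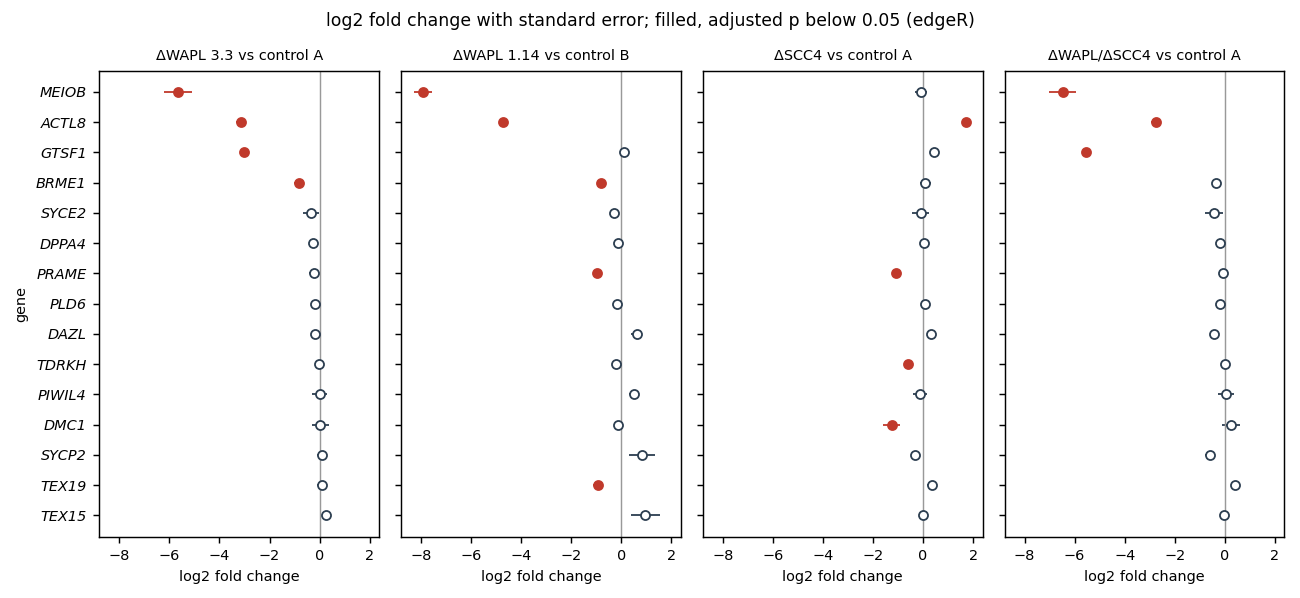
log2 fold change (horizontal axis, knockout minus control, with SE bars) of the 15 expressed members (vertical axis) in 4 comparisons of 3 against 3 samples. Filled points passed an adjusted p of 0.05 in edgeR's test. ACTL8 lies left of 0 in every *ΔWAPL* panel and right of it in *ΔSCC4*, and GTSF1 lies at 0.09 in clone 1.14 but at -3 in clone 3.3.

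GTSF1 was high in both sets of controls and differed between the *ΔWAPL* clones. Control A had 104, 100.2 and 81.9 CPM in replicates 1 to 3, and clone 3.3 had 12, 11.8 and 12.6 CPM. The 3 values of clone 3.3 lay far below all controls. The fold change was -3 on the log2 scale (SE 0.16, adjusted p = 2.29e-08 from edgeR), a 7.98-fold lower level. In set B the controls had 91.5, 96.1 and 85.9 CPM and clone 1.14 had 91.7, 103 and 97.6 CPM. These groups overlapped, with a log2 fold change of 0.09 (SE 0.07, adjusted p = 0.378 from edgeR). The effect in clone 3.3 minus that in clone 1.14 was -3.07 (SE 0.15, adjusted p = 3.99e-08 from edgeR), and every sample of clone 3.3 was below its controls while clone 1.14 was not. Over both clones GTSF1 had a log2 fold change of -1.37 (SE 0.45) and an adjusted p = 0.0501 from edgeR, just above the threshold. It passed with DESeq2 (adjusted p = 0.0227), without the filter on low counts (0.0294) and in 1 fit over 18 samples (1.28e-10). It did not pass with the replicate block (adjusted p = 0.129 from edgeR) or with the size factors of DESeq2 in edgeR (0.0504), and it passed in 5 of 12 fits that left out 1 sample.

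In *ΔSCC4* cells GTSF1 stood at 136, 135 and 118 CPM, above all 3 controls of set A. The log2 fold change of 0.43 (SE 0.14) had an adjusted p = 0.0874 from edgeR. Same-numbered samples of these 2 groups deviated together in these data (lowest correlation 0.208), but the labels name no pairing. Control A replicate 2 and *ΔSCC4* replicate 3 reached 0.188. With the number as a block, a design taken from the data, the adjusted p was 0.000132 from edgeR. In *ΔWAPL*/*ΔSCC4* cells GTSF1 had 2.45, 1.84 and 1.87 CPM, the lowest of the 6 groups. It was 46.4-fold lower than control A (log2 fold change -5.54, SE 0.18, adjusted p = 9.13e-08 from edgeR) and 5.88-fold lower than clone 3.3 (log2 fold change -2.56, SE 0.17, adjusted p = 2.6e-08 from edgeR). GTSF1 was therefore higher in the *ΔSCC4* line than in control A and lower in the double knockout than in clone 3.3. These 2 differences are called SCC4 effects below, though each rests on 1 line and the only *ΔWAPL* background is clone 3.3. The difference between these effects, a comparison added after the values were seen, was -2.97 on the log2 scale (SE 0.2, adjusted p = 1.61e-07 from edgeR). In spite of this range, GTSF1 stayed above 1 CPM in all 18 samples.

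ACTL8 fell in both clones and was higher in *ΔSCC4* cells than in control A. Control A had 24.2, 21.6 and 18.1 CPM, and clone 3.3 had 2.64, 2.4 and 2.19. Control B had 42.8, 43.8 and 39.4 CPM, and clone 1.14 had 1.8, 1.6 and 1.39. No *ΔWAPL* sample reached the lowest of its controls. The level was 8.9-fold lower in clone 3.3 (log2 fold change -3.15, SE 0.19, adjusted p = 6.02e-08 from edgeR) and 26.2-fold lower in clone 1.14 (log2 fold change -4.71, SE 0.11, adjusted p = 1.83e-06 from edgeR). The difference between the clones was 1.58 (SE 0.22, adjusted p = 0.00082 from edgeR).

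*ΔSCC4* cells had 78.5, 72.4 and 60.7 CPM of ACTL8, the highest values measured for this gene. That is 3.28-fold above control A (log2 fold change 1.71, SE 0.16, adjusted p = 8e-05 from edgeR). *ΔWAPL*/*ΔSCC4* cells had 2.73, 2.89 and 3.73 CPM, each above every sample of clone 3.3. The difference from clone 3.3 was 0.36 (SE 0.2) with an adjusted p = 0.294 from edgeR, and the double knockout was 6.83-fold below control A (log2 fold change -2.77, SE 0.18, adjusted p = 6.05e-06 from edgeR). The double knockout thus differed less from clone 3.3 than the *ΔSCC4* line did from control A, by 1.34 on the log2 scale (difference -1.34, SE 0.24, adjusted p = 0.00183 from edgeR).

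MEIOB, a single-strand DNA-binding protein of meiotic recombination, went from on to off. Control A had 1.82, 2.53 and 2.8 CPM, from 28, 41 and 47 reads. In clone 3.3 it had 0, 2 and 0 reads, and in *ΔWAPL*/*ΔSCC4* cells 0, 0 and 1. Control B had 88, 104 and 115 reads, or 6.01, 6.99 and 6.47 CPM, against 0, 0 and 1 read in clone 1.14. By the rule for on and off, MEIOB was off in clone 1.14 and in *ΔWAPL*/*ΔSCC4* cells, and low in clone 3.3 because of 1 sample at 0.141 CPM. As ratios of summed counts relative to library size it was 59.1-fold lower in clone 3.3 (95% interval 16 to 494), 339.5-fold lower in clone 1.14 (60.5 to 13454) and 124-fold lower in the double knockout (21.8 to 4924), with counting error only. All 3 comparisons passed (adjusted p = 7.21e-06, 1.73e-05 and 3.13e-05 from edgeR), with fitted values of -5.65, -7.93 and -6.48 that depend on the prior count. *ΔSCC4* cells had 2.15, 2.14 and 2.49 CPM, within the controls, with a log2 fold change of -0.09 (SE 0.23, adjusted p = 0.854 from edgeR). The plot of these 3 genes by library shows the separation.

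**Figure D3:**
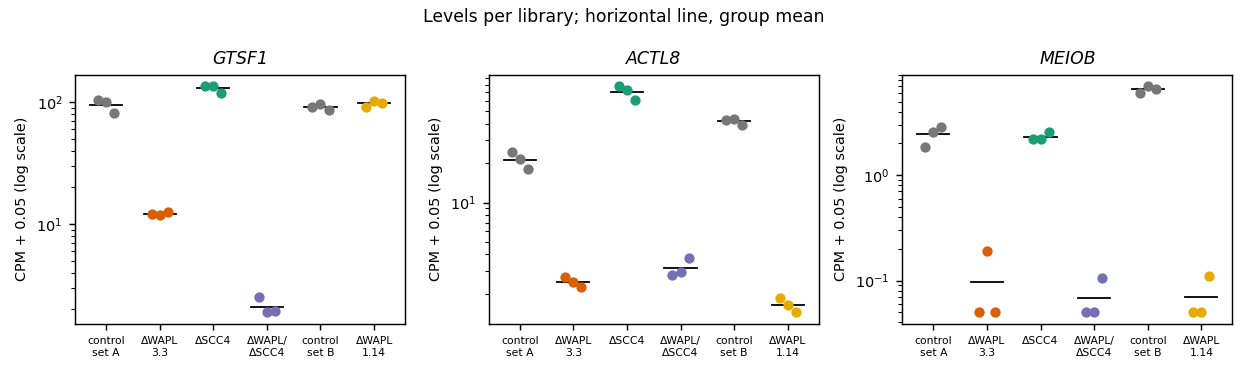
Level of GTSF1, ACTL8 and MEIOB in each library (vertical axis, CPM + 0.05 on a log scale) by group (horizontal axis); points are libraries and lines are means of 3. Clone 3.3 and the double knockout lie below control A in all 3 panels, and clone 1.14 lies below control B for ACTL8 and MEIOB only.

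BRME1, a partner of BRCA2 in meiotic repair, also fell in both clones. It had 6.19, 5.55 and 4.94 CPM in control A and 2.74, 3.04 and 3.72 in clone 3.3. It had 4.24, 5.71 and 3.94 CPM in control B and 2.54, 2.67 and 2.65 in clone 1.14. Neither pair of groups overlapped. The log2 fold changes were -0.84 (SE 0.2, adjusted p = 0.0149 from edgeR) and -0.82 (SE 0.17, adjusted p = 0.0156 from edgeR). Each of these calls was lost in 3 of the 6 fits that left out 1 sample, without control A replicate 2 or clone 3.3 replicate 1 or 2 in set A, and without any 1 of the 3 samples of clone 1.14 in set B. Over both clones the value was -0.82 (SE 0.12, adjusted p = 0.000254 from edgeR), where 17.7% of all genes changed and 9.13% were lower. MEIOB, ACTL8, BRME1 and PRAME were the 4 of 17 tested members that passed over both clones, all lower.

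PRAME, a melanoma antigen that binds nuclear receptors and ubiquitin ligases, followed another order. Control A had 20.7, 19.5 and 16.4 CPM, clone 3.3 had 14.1, 16.6 and 17.7, and these overlapped (log2 fold change -0.24, SE 0.17, adjusted p = 0.54 from edgeR). Control B had 33.9, 37.7 and 34.1 CPM and clone 1.14 had 17.6, 17.9 and 19 (log2 fold change -0.96, SE 0.08, adjusted p = 0.000203 from edgeR). The level in clone 1.14 was thus close to that of control A. *ΔSCC4* cells had 9.69, 9.57 and 7.95 CPM, the lowest group (log2 fold change -1.07, SE 0.16, adjusted p = 0.00178 from edgeR). *ΔWAPL*/*ΔSCC4* cells stood at 20, 17.1 and 17.1 CPM, overlapping control A, with a log2 fold change of -0.07 (SE 0.14, adjusted p = 0.885 from edgeR). Against *ΔSCC4* cells the double knockout was higher by 1 (SE 0.15, adjusted p = 0.000111 from edgeR), and the SCC4 effect differed between the backgrounds by 1.25 (SE 0.2, adjusted p = 0.000769 from edgeR).

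TDRKH, a Tudor domain protein that anchors PIWI proteins at mitochondria, was lower in *ΔSCC4* cells than in control A. It had 24.6, 22.3 and 25.3 CPM in control A and 16.4, 16.8 and 14.9 in *ΔSCC4* (log2 fold change -0.6, SE 0.14, adjusted p = 0.0215 from edgeR). In clone 3.3 it had 23.4, 22.6 and 25 CPM, and in the double knockout 22.5, 25.6 and 24.3, both overlapping the controls. The SCC4 effects on the 2 backgrounds differed by 0.64 (SE 0.16, adjusted p = 0.0167 from edgeR), a call lost without replicate 2 of clone 3.3 or of the double knockout. In all, GTSF1, ACTL8, PRAME and TDRKH were the 4 of 17 members whose SCC4 effect differed between backgrounds, where 11.3% of all genes did. DMC1, the meiotic recombinase, had 0.977, 1.11 and 1.37 CPM in control A and 0.325, 0.611 and 0.553 in *ΔSCC4* (log2 fold change -1.26, SE 0.34, adjusted p = 0.0442 from edgeR). Its double knockout samples spread from 0.735 to 2.09 CPM, and the difference of SCC4 effects, 1.46 (SE 0.62), had an adjusted p = 0.157 from edgeR. The *ΔSCC4* calls of TDRKH and DMC1 were lost in 5 of 6 fits that left out 1 sample, leaving 2 members, ACTL8 and PRAME; only without control A replicate 1 were they kept. With the replicate block all 4 passed and GTSF1 and DAZL rose as well, making 6 members (DAZL log2 fold change 0.31, adjusted p = 0.00315 from edgeR with the block). Set beside these values, the haematopoietic marker sum was 14.4 to 19.8 CPM in *ΔSCC4* and 91.2 to 93.4 in control A, as TAL1 fell from 72.9 ± 5.62 to 4.39 ± 0.509 CPM (SD, n = 3), and its part in these results was not tested.

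In the double knockout against *ΔSCC4* cells, 7 of 17 members changed, where 27.3% of all genes did. GTSF1, MEIOB, ACTL8 and DAZL were lower and DMC1, PRAME and TDRKH higher. DMC1, at 1.49 (SE 0.42, adjusted p = 0.0152 from edgeR), was lost without *ΔSCC4* replicate 2 or double knockout replicate 2. DAZL had 47.6, 63.3 and 56.5 CPM in *ΔSCC4* and 30.8, 38.1 and 29.2 in the double knockout (log2 fold change -0.77, SE 0.14, adjusted p = 0.000814 from edgeR). Against clone 3.3, the double knockout had 2 lower members among 15 tested, GTSF1 and SYCP2, where 10.6% of all genes changed and 4.55% were lower. SYCP2, a lateral element protein of the synaptonemal complex, went from 4.38, 5.45 and 3.92 to 3.24, 2.95 and 2.21 CPM (log2 fold change -0.7, SE 0.2, adjusted p = 0.0297 from edgeR). This call was lost without clone 3.3 replicate 2 or without double knockout replicate 3, leaving GTSF1 alone.

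TEX19, a mammal-specific germ cell protein, fell in clone 1.14. Control B had 4.24, 6.86 and 6.3 CPM and clone 1.14 had 2.81, 3.38 and 3.02 (log2 fold change -0.93, SE 0.2, adjusted p = 0.0156 from edgeR). Control A, with 3.26, 2.96 and 2.86 CPM, already lay at the level of clone 1.14, and clone 3.3 had 3.09, 3.18 and 3.65. The difference between the clones was 1.05 (SE 0.26, adjusted p = 0.0459 from edgeR). For PRAME it was 0.73 (SE 0.17, adjusted p = 0.031 from edgeR). In all, 4 of 17 members differed between the clones, where 2.65% of all genes did, and with the replicate block, or in 8 of 12 fits without 1 sample, only GTSF1 and ACTL8 did. The calls of BRME1 and TEX19 in clone 1.14 were both lost without replicate 1 or 3 of that clone, leaving 3 members. Beside the values of this clone, the haematopoietic marker sum was 24.9 to 27 CPM against 76.9 to 80.4 in control B, as TAL1 fell from 54.4 ± 2.26 to 2.71 ± 0.283 CPM, and VIM fell from 486 ± 31.7 to 362 ± 15.3 CPM (SD, n = 3). Their part in these results was not tested.

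In set B the same-numbered samples also deviated together, and the labels name no pairing here either. Replicates 1 correlated at only 0.111, while control B replicate 3 and clone 1.14 replicate 1 reached 0.236. With the number as a block, a design taken from the data, DAZL was higher in clone 1.14 (log2 fold change 0.66, adjusted p = 0.0112 from edgeR with the block), so that 6 members changed. Without the block its value was 0.62 (SE 0.22, adjusted p = 0.0846 from edgeR). Control B had 35.1, 24.9 and 47.3 CPM of DAZL and clone 1.14 had 57.8, 47 and 61.1. The control B samples also spread widely for some long, AT-rich transcripts. TEX15, a piRNA and meiosis factor with a longest transcript of 11476 bases and 35.3% GC, had 33.8, 8.94 and 73 CPM in control B and 78.3, 71.7 and 74.5 in clone 1.14. SYCP2, with 5541 bases and 34.3% GC, had 3.35, 0.672 and 6.3 CPM in control B. Across 12017 genes, the deviation of control B replicate 2 from its group had a Spearman's rho of -0.34 with transcript length and 0.49 with GC content. This library was not exceptional in that, since over the 18 libraries rho ran from -0.39 to 0.54 for length and from -0.66 to 0.75 for GC, with both GC extremes in set A. These are correlations across genes of 1 library, and genes are not independent replicates. Without control B replicate 3, 9 members passed in clone 1.14, with DAZL, TEX15 and SYCP2 higher among them; without control B replicate 2 the number was 5.

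**Figure D4:**
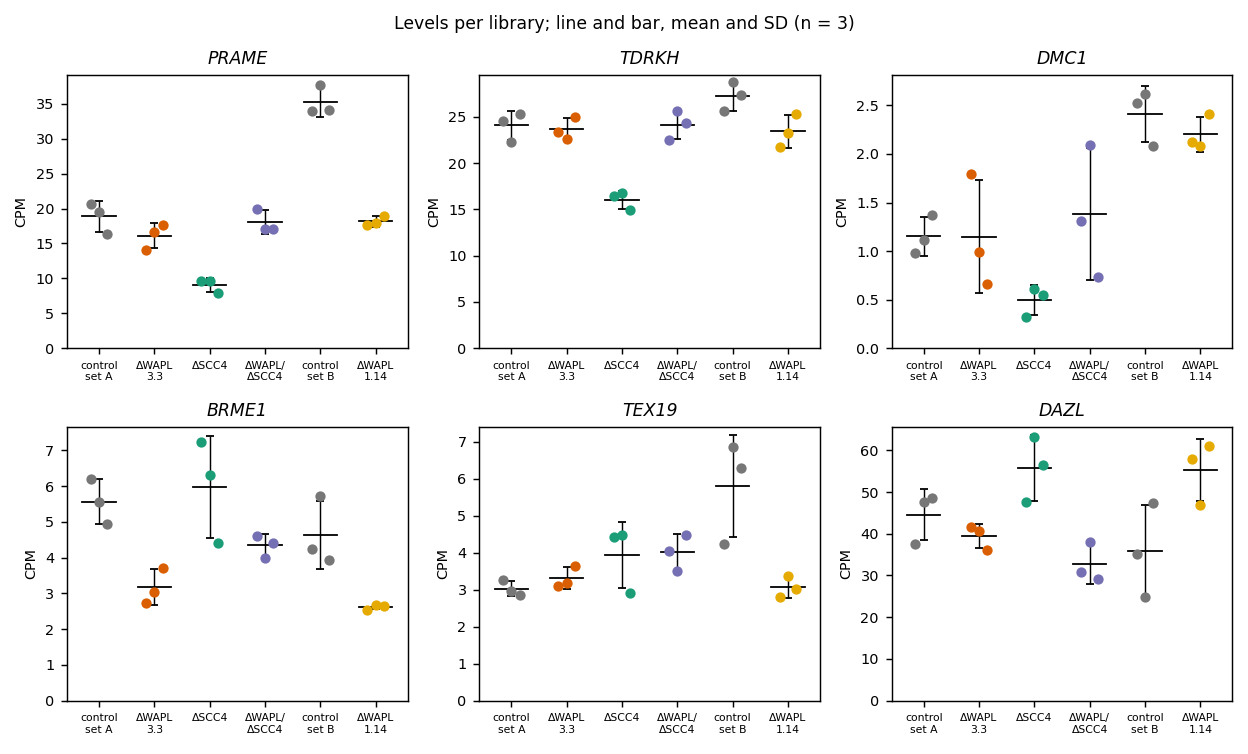
Level of PRAME, TDRKH, DMC1, BRME1, TEX19 and DAZL in each library (vertical axis, CPM from 0) by group (horizontal axis), with mean and SD of 3. *ΔSCC4* samples are the lowest for PRAME and TDRKH, and both *ΔWAPL* clones lie below their controls for BRME1.

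The other expressed members did not pass the main test in any comparison of a knockout with its controls. DPPA4 lay between 173 and 257 CPM in all 18 libraries, with log2 fold changes of -0.27 to 0.02. PLD6 lay between 50.5 and 81.1 CPM, with -0.2 to 0.09. PIWIL4, the nuclear PIWI protein, had 1.04 to 2.21 CPM, and its log2 fold changes ran from -0.12 to 0.5. SYCE2, of the central element of the synaptonemal complex, had 0.799 to 2.67 CPM, so that 1 double knockout library put it below the on state, and its log2 fold changes ran from -0.44 (SE 0.37) to -0.1 (SE 0.33). In clone 1.14 DPPA4, PLD6 and PIWIL4 did not overlap control B, like 42.5% of all genes. Their unadjusted p were 0.0267, 0.0441 and 0.044 from edgeR. Without 1 sample, DPPA4 passed in 1 of 6 fits of clone 1.14. Over both clones DPPA4 passed in 2 of 12 such fits, and PLD6 and SYCE2 in 1 of 12 each.

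The controls of the 2 sets differed for members too. MEIOB was higher in control B by 1.43 (SE 0.18, adjusted p = 0.0129 from edgeR), ACTL8 by 0.97 (SE 0.15, adjusted p = 0.0232 from edgeR) and PRAME by 0.89 (SE 0.14, adjusted p = 0.0284 from edgeR). That is 3 of 17 members, where 0.64% of all genes differed and 0.56% were higher in control B. In edgeR 0 members passed without control A replicate 1 or 2, where 6 and 5 had an unadjusted p under 0.05, and MEIOB alone passed without control B replicate 1. DESeq2 on all samples called 3. Controls came from separate sequencing runs, and run and culture cannot be told apart. Each clone was therefore compared with the controls of its own set.

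Among the X-linked members reads were few, and their sum was lower in every knockout library than in every control library. No test was made of this sum, which leaves out reads without a unique alignment. The 11 genes together had 14, 14 and 13 reads in control A and 30, 32 and 33 in control B, against 1 to 9 in each of the 12 knockout libraries. Single members did not all do so. TEX11 had 9 reads in control A and 11 in the double knockout, SSX1 had 3 and 4, and in *ΔSCC4* MAGEC1 and MAGEC2 had 4 reads each beside 0 and 1 in control A. MAGEA4, a melanoma antigen family member, had 3, 4 and 4 reads in control A, 7, 8 and 7 in control B and no read in any knockout library. Taking 3 reads over a group as the limit of a count of 0, it was at least 3.73-fold lower in clone 3.3, at least 8.11-fold lower in clone 1.14, at least 3.01-fold lower in *ΔSCC4* and at least 3.91-fold lower in the double knockout. MAGEB2 had 4, 4 and 2 reads in control A and 7, 9 and 5 in control B, and among the knockouts only 1 read, in *ΔSCC4* replicate 2. It was at least 3.4-fold lower in clone 3.3 and at least 7.74-fold lower in clone 1.14. MAGEA3 had 5, 6 and 8 reads in control B and none in clone 1.14, at least 7-fold lower, but it shares nearly identical sequence with MAGEA6 and its reads are uncertain.

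These genes did not pass the filter on low counts. Without the filter, MAGEA4 passed over both clones (adjusted p = 0.000125 from edgeR) and in all 4 comparisons with control, the largest adjusted p being 0.0449 in *ΔSCC4*. DESeq2 called it over both clones (adjusted p = 1.22e-05) and in clone 1.14 (adjusted p = 0.00225), but not in clone 3.3 (adjusted p = 0.108) or the double knockout (adjusted p = 0.103), and gave no adjusted p in *ΔSCC4*. MAGEB2 passed in clone 3.3 (adjusted p = 0.0392 from edgeR) and clone 1.14 (adjusted p = 0.0155 from edgeR), and DESeq2 called it in clone 1.14 (adjusted p = 0.00327) but not in clone 3.3 (adjusted p = 0.147). The autosomal TDRD5, a piRNA factor, and STK31, a Tudor domain kinase, passed over both clones only, with adjusted p = 0.0223 and 0.0182 from edgeR and 0.14 and 0.0492 from DESeq2. TDRD5 had 1, 4 and 6 reads in control B and none in clone 1.14.

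**Figure D5:**
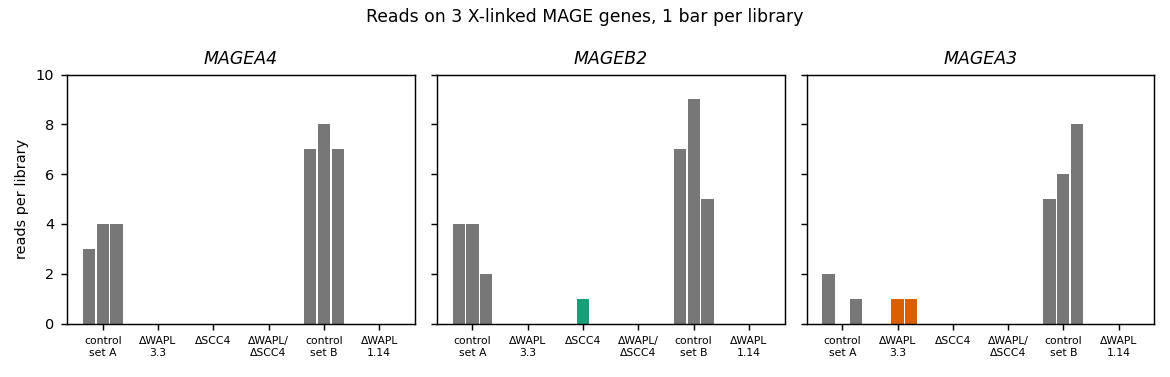
Reads per library (vertical axis) on MAGEA4, MAGEB2 and MAGEA3 by group (horizontal axis), 1 bar per library. Bars stand in both control sets, up to 9 reads, and a single read is left in 1 *ΔSCC4* library for MAGEB2 and in each of 2 clone 3.3 libraries for MAGEA3.

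Related genes outside the set were counted by list. Among 16 further piRNA genes, 5 were tested in clone 3.3, where TDRD7, a Tudor domain protein, rose from 23.3 ± 3.73 to 34.3 ± 1.87 CPM (SD, n = 3; log2 fold change 0.54, SE 0.15, adjusted p = 0.0406 from edgeR). TDRD7 rose in clone 1.14 as well (log2 fold change 0.39, SE 0.08, adjusted p = 0.0137 from edgeR), where DDX39A fell by 0.24. KIF17 rose in the double knockout, from 1.29 ± 0.19 to 3.52 ± 0.788 CPM. Of the 5 tested, 20% changed in clone 3.3 and in the double knockout, 40% in clone 1.14 and 0% in *ΔSCC4*. The shares of all genes were 8.07%, 7.95%, 20.1% and 9.49% in the same order. The median log2 fold change of this list was 0.03 in clone 3.3 and 0.39 in clone 1.14, beside 0 over all genes in both.

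Of 32 further meiosis genes, 8 were on in all controls. Of the 8 tested in clone 3.3, 0 passed in edgeR and in DESeq2, with 1 at an unadjusted p under 0.05, while 4 of 10 passed in clone 1.14, 2 in each direction. Of all genes tested 8.07% and 20.1% passed in these comparisons. In clone 1.14 STAG3, the meiotic cohesin subunit, fell from 1.1 ± 0.149 to 0.36 ± 0.157 CPM (SD, n = 3; log2 fold change -1.58, SE 0.33, adjusted p = 0.0146 from edgeR), and REC8, the meiotic kleisin, rose from 1.32 ± 0.105 to 2.47 ± 0.406 CPM (log2 fold change 0.91, SE 0.18, adjusted p = 0.0132 from edgeR). HFM1, a meiotic helicase, rose in *ΔSCC4* cells from 0.432 ± 0.148 to 1.8 ± 0.436 CPM (log2 fold change 2, SE 0.35, adjusted p = 0.00412 from edgeR).

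Of 79 further cancer-testis genes, 71 were in the files and 11 were on in all controls. TKTL1, an X-linked transketolase-like gene, fell in all 4 knockouts. It went from 3.97 ± 0.597 CPM in control A to 0.147 ± 0.0501 in clone 3.3, 0.72 ± 0.12 in *ΔSCC4* and 0.23 ± 0.108 in the double knockout (SD, n = 3). In clone 1.14 it had no read, against 591 in control B, and was at least 218-fold lower. CABYR, a calcium-binding sperm protein, rose in both clones and in the double knockout, from 1.79 ± 0.534 CPM in control A to 7.9 ± 0.855 in the latter. CTCFL, the germline paralogue of CTCF, had 70 reads in control B and 2 in clone 1.14, a ratio of 38.7 (95% interval 10.3 to 326). In the list 1 gene rose and 1 fell of 11 tested in clone 3.3 and in the double knockout. In clone 1.14, 1 rose and 3 fell of 12, and in *ΔSCC4* 1 fell of 11. Of all genes tested, 8.07% changed in clone 3.3, 7.95% in the double knockout, 20.1% in clone 1.14 and 9.49% in *ΔSCC4*. The median log2 fold change was 0.21 in clone 3.3, 0.1 in clone 1.14, -0.17 in *ΔSCC4* and 0.01 in the double knockout, beside 0 over all genes in each.

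Of 23 germ cell and pluripotency genes, 4 of 11 tested fell in clone 3.3 and 6 of 12 in clone 1.14, with 1 rising in each, where 3.9% and 11.4% of all genes fell. In the double knockout 4 of 12 fell and 3 rose, where 3.3% of all genes fell, and in *ΔSCC4* 1 of 12 fell and 1 rose, where 9.49% of all genes changed. LIN28A, an RNA-binding protein that blocks let-7 maturation, had 98 reads in control A, 1 in clone 3.3 and 0 in *ΔSCC4*, and 151 in control B against 1 in clone 1.14. It was 99.8-fold lower in clone 3.3 (95% interval 17.5 to 3982), at least 26.8-fold lower in *ΔSCC4* and 167-fold lower in clone 1.14 (29.5 to 6639). KLF4 fell from 6.5 ± 0.405 to 2.27 ± 0.457 CPM in clone 3.3 and from 20.5 ± 2.52 to 2.94 ± 0.477 in clone 1.14 (SD, n = 3). In the double knockout LIN28A fell to 0.173 ± 0.095 CPM and KLF4 to 2.64 ± 0.322, while UTF1 rose from 0.183 ± 0.155 to 1.05 ± 0.176 CPM. TFAP2A, at 11.1 ± 0.791 CPM in control A, fell to 6.21 ± 0.319 in clone 3.3 and rose to 16.8 ± 2.54 in *ΔSCC4* (SD, n = 3). Of 32 genes of the PRC1.6 complex, of H3K9 methylation and of DNA methylation, with the demethylases TET1, TET2 and TET3 among them, 30 were tested and 1 changed in clone 3.3, 3 in clone 1.14 and 0 in *ΔSCC4* and in the double knockout by edgeR, where 4 and 2 had an unadjusted p under 0.05 and DESeq2 called 1 and 0. The shares of all genes changed were 8.07%, 20.1%, 9.49% and 7.95% in the same order. The 3 that changed in clone 1.14 were DNMT3L, which fell, and HELLS and TET3, which rose by 0.36 and 0.21 on the log2 scale. DNMT3L, the germline cofactor of DNA methyltransferases, was the gene that changed in clone 3.3, with 40 reads in control A and none in clone 3.3, at least 13.6-fold lower. In clone 1.14 it had 1 read against 93 in control B.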

How the data were processed

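The authors deposited counts of reads per Ensembl gene for each sample, without normalization. Strand-specific libraries of polyadenylated RNA were aligned to hg19 with TopHat2 (version 2.0.9 in the submitters' notes; the methods give another version) and counted with HTSeq; the annotation release is not given in the sources used here. Lines that name no gene (20.3% to 22.6% of reads) were left out. Most of these were reads without a unique alignment, 14.3% to 16.1% of reads. Of the identifiers, 96.6% were found in the GRCh37 annotation. Members and lists were chosen with earlier results of these data known.

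Counts were tested with edgeR 4.0.16 in R 4.3.3 (TMM, filterByExpr, quasi-likelihood test, Benjamini-Hochberg adjustment), with the set as a covariate over both clones. The fits were tested on simulated data. Alternatives were DESeq2 1.42.0, its size factors, no filter, 1 fit over 18 samples, the replicate number as a block, and leaving out each sample. Same-numbered samples deviated together, with each correlation above 0.1, for *ΔSCC4* against control A (lowest 0.208) and clone 1.14 against control B (lowest 0.111), from the data and not the labels. No 2 replicates were identical. Full statistics are given for members on in at least 1 group, and from each list at most 3 genes past the threshold per comparison. Wherever it is printed, an adjusted p is Benjamini-Hochberg adjusted over all genes tested.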

Additional observations from a re-analysis of the deposited data

Results flagged for a closer look

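The *ΔWAPL* effect differed between the clones for 4 members by edgeR's test of the difference, given as clone 3.3 minus clone 1.14 on the log2 scale. It was -3.07 for GTSF1, 1.58 for ACTL8, 1.05 for TEX19 and 0.73 for PRAME. For ACTL8 both clones fell and clone 1.14 by more, while for GTSF1 the fall was seen in clone 3.3. The clones also differ in their set, so clone and set cannot be told apart.

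The SCC4 effect, from 1 line on each background, differed between clone 3.3 and control for 4 members, a comparison added after the values were seen. Genotype and clone cannot be told apart in these lines. The effect in clone 3.3 minus that in control was -2.97 for GTSF1, -1.34 for ACTL8, 1.25 for PRAME and 0.64 for TDRKH. PRAME and TDRKH fell with SCC4 loss on the control background, and in the double knockout both overlapped control A.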

How the results depend on the processing

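The number of members changed over both *ΔWAPL* clones, 4 of 17, was 9 of 46 with DESeq2 and 10 of 46 without a filter on low counts. Members with few reads entered these alternatives and not the main fit. Without 1 sample the number was 4 to 6. In clone 1.14 the number, 5 of 17, was 9 of 44 with DESeq2, 8 of 44 without a filter and 3 to 9 without 1 sample. In clone 3.3 it was 3 to 4 without 1 sample. The 2 of 15 members lower in the double knockout than in clone 3.3 became 1 of 33 with DESeq2. They became 1 of 17 in a fit over 18 samples, and 1 to 3 without 1 sample. Without 1 sample the numbers were 2 to 5 in *ΔSCC4*, 3 to 5 in the double knockout against control A, 6 to 9 against *ΔSCC4*, 2 to 4 for the difference between the clones, 0 to 3 between the controls, and 3 to 5 for the difference of SCC4 effects. The number of members on in both controls, 13, was 13 to 14 without 1 sample. With the replicate block, 2 members differed between the clones in place of 4. The causes were not tested. Shares of all genes changed are given for the main fits only. The numbers of members in alternative fits, here and above, have no such share beside them. Among the expressed members, 60 pairs of member and comparison were past the threshold in at least 1 fit. Their log2 fold changes kept their sign, and the other 89 pairs were not followed. Members not on in any group, such as MAGEA4, are not among these pairs. Of the values for these 60 under alternatives, 685 kept their side of the threshold, 60 lost it and 35 gained it. ACTL8 in each knockout against its control, MEIOB in each *ΔWAPL* line and GTSF1 in clone 3.3 and the double knockout passed in every fit without 1 sample. So did PRAME in clone 1.14 and in *ΔSCC4*. Low counts limit MEIOB and the X-linked genes.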

Other observations

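Of the genes tested within 250 kb of the expressed members, 5.08% changed in clone 3.3, 20.8% in clone 1.14, 10.9% in *ΔSCC4* and 6.78% in the double knockout, beside 8.07%, 20.1%, 9.49% and 7.95% of all genes. Near GTSF1, PDE1B, a phosphodiesterase 76 kb away, fell in clone 3.3 from 5.51 ± 1.32 to 1.79 ± 0.339 CPM (SD, n = 3; adjusted p = 0.000298 from edgeR). It also fell in clone 1.14, from 6.5 ± 0.363 to 2.61 ± 0.434 CPM (adjusted p = 0.000695 from edgeR), where GTSF1 itself had a log2 fold change of 0.09. In *ΔSCC4* cells PDE1B rose to 11.1 ± 2.26 CPM (adjusted p = 0.0146 from edgeR), and in the double knockout, where GTSF1 was lowest, it fell to 3.04 ± 0.228 CPM (adjusted p = 0.0251 from edgeR).

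Near DAZL, RFTN1, a raft-associated protein 72.8 kb away, rose from 0.252 ± 0.136 to 3.71 ± 0.0929 CPM in clone 3.3 (adjusted p = 1.46e-06 from edgeR) and from 0.23 ± 0.0826 to 3.48 ± 0.183 CPM in clone 1.14 (adjusted p = 4.66e-05 from edgeR). It reached 1.09 ± 0.16 CPM in *ΔSCC4* (adjusted p = 0.00872 from edgeR). Near SYCP2, PHACTR3 rose from 0.227 ± 0.0275 CPM in control A to 1.75 ± 0.64 in *ΔSCC4* (adjusted p = 0.00106 from edgeR) and 1.72 ± 0.169 in the double knockout (adjusted p = 0.000152 from edgeR). Near MEIOB, NME3 rose from 5.92 ± 0.931 to 10.4 ± 2.42 CPM in clone 3.3 (adjusted p = 0.0253 from edgeR) and to 18.2 ± 1.84 in the double knockout (adjusted p = 9.44e-05 from edgeR). It did not pass in *ΔSCC4* (8.34 ± 1.93 CPM, adjusted p = 0.188 from edgeR) or in clone 1.14 (9.12 ± 1.3 against 7.41 ± 1.39 CPM in control B, adjusted p = 0.221 from edgeR), where MEIOB fell as well.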
